A study of Mus musculus with 121 samples.

Results

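The replication-dependent histone genes encode the H2A, H2B, H3, H4 and H1 proteins that package newly copied DNA. They were followed here through acute loss of the transcription factor YY1 in a mouse erythroid cell line. The rule for choosing genes used the symbol, old style (Hist1h4i, for example) or new style (H4c9), and no measured values. It was set with earlier results of these data known. The rule found 59 of the 25208 gene symbols listed in the table of newly made RNA. It found 64 of the 55351 symbols in the RNA time series and 65 of the 22493 symbols in the table of untreated lines. Genes without any count numbered 8, 1 and 3 in those tables, and 49, 50 and 57 genes passed the filter on low counts and were tested. The genes that did not pass are described below only by their levels. The first table carries mainly new-style symbols with some old-style ones, and the second new-style symbols. In both, the H1 genes are called H1f1 to H1f5 and fall outside the rule, so H1 members occur in the table of untreated lines alone. A few members are annotated as pseudogenes, among them Hist1h2al, which was tested in TT-seq and in the untreated lines.

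All cells were G1E-ER4, an erythroid line that was derived from GATA1-null mouse embryonic stem cells and in which GATA1 can be switched on by hormone. The YY1-AID subline makes YY1 with a degron tag, and adding auxin triggers destruction of the tagged protein. TT-seq, in which RNA made during a 5 min pulse of 500 µM 4-thiouridine is purified and sequenced, compared asynchronous YY1-AID cells given auxin for 4 h with untreated ones, 3 libraries each. RNA-seq of poly(A)-selected RNA followed asynchronous YY1-AID cells at 0, 4, 24 and 48 h of auxin, 3 libraries each. A separate RNA-seq table held untreated cells of the subline labelled clone3 (subline 3 below), the YY1-AID subline and the parental line, 2 libraries each. The labels do not say that replicates came from separate cultures, so p-values measure the spread between these libraries, which may be technical. The auxin comparisons rest on 1 subline.

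Replication-dependent histone genes lie in clusters, lack introns and are transcribed mainly in S phase. Their transcription is organised by NPAT and FLASH (the product of Casp8ap2) in the histone locus body. Their mRNAs are cut by the U7 snRNP, end in a stem-loop bound by SLBP and carry no poly(A) tail. Selection on poly(A) therefore catches only a small part of them, whereas TT-seq selects on the label and not on the tail. YY1 has been reported to bind an element in the coding region of mouse replication-dependent histone genes.

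The promoters of the member with the highest TT-seq level in each class are shown as examples of elements found in histone promoters. They are the 120 bases before the transcription start, 5′ to 3′ on the gene's strand, from RefSeq on GRCm38.p6. H4c6 is added as an H4 gene that did not pass the test of TT-seq libraries paired by number, unlike H4c4 (neither passed without the pairing). Capitals mark the CCAAT box, the TATA box in the form TATAAA, the H4 element core GGTCCG and the octamer ATTTGCAT, each in either orientation.

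H2ac15 (chr13:21753913-21754032, minus strand): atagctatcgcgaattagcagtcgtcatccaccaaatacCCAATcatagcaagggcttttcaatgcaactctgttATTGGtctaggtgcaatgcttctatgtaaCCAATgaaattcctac
H2bc18 (chr3:96269580-96269699, plus strand): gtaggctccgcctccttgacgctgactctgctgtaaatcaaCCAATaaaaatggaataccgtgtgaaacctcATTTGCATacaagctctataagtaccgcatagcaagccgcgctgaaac
H3c6 (chr13:23562386-23562505, minus strand): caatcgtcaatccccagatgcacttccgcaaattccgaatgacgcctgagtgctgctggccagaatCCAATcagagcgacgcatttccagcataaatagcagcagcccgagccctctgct
H4c4 (chr13:23581448-23581567, plus strand): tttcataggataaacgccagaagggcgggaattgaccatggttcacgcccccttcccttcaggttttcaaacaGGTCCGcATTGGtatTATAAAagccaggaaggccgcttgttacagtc
H4c6 (chr13:23551669-23551788, minus strand): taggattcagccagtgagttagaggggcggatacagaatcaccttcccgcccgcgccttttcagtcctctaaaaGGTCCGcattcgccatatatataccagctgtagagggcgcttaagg

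Among the 57 core histone promoters in the RefSeq table, searched over 250 bases before the start on both strands, CCAAT occurred in 80.7%, against 33.8% of all 32851 promoters. Every H2A promoter (18 of 18) and every H2B promoter (17 of 17) held it, as did 8 of 10 H3 promoters and 3 of 12 H4 promoters. TATAAA occurred in 43.9% of the core histone promoters and 12.4% of all promoters. The octamer, which the factor Oct-1 binds in H2B promoters, was present in 24.6% against 1.60% of all promoters. It was found in 7 of 18 H2A and 7 of 17 H2B promoters and in 0 H3 or H4 promoters. GGTCCG, part of the H4 element to which HINFP binds, stood in 9 of 12 H4 promoters and in 6.72% of all promoters. The core of the YY1 motif, AANATGGC, was found in 5 of 57 core histone promoters (8.77%), against 3.91% of all promoters. No motif holds another within its letters, though neighbouring matches can share end bases. The H2A and H2B genes often share a promoter, since 10 divergent H2A and H2B pairs had 220 to 279 of their 300 promoter-window bases in common.

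In TT-seq the histone genes were abundant. They took 0.127% to 0.177% of gene counts per library, with a median level of 30.5 CPM (counts-per-million, with library sizes scaled by the trimmed mean of M values, TMM) and a median percentile among all genes of 74.6. Levels per kilobase of annotated transcript were taken for 46 members of at most 1000 bases. Another 5 with counts, H2bc6 and H2bc4 among them, were longer or had no length and were left out. Of the 46, the H4 gene H4c4 was the highest, at 232 ± 76.7 CPM per kb in auxin and 273 ± 58.1 in untreated cells (SD, n = 3 each). The H2B gene H2bc18 followed, at 212 ± 76.7 CPM per kb in auxin and 223 ± 52.2 in untreated cells. The linker histone gene H1f3 stood above both, at 240 ± 55.9 CPM per kb in auxin and 277 ± 64.2 in untreated cells. These levels do not differ beyond their spread. The median level per kb over all libraries was 90.3 for 12 H4, 67.4 for 11 H2B, 64.3 for 10 H3 and 31.4 for 13 H2A genes. The testis-type genes H2ac1 and H2bc1 were near the bottom, at 0.00874 and 0.747 CPM per kb, where the median member had 61.5. The genes H2ac18, H2ac19, H3c14, H3c15, Hist1h2ao, Hist1h2ap, Hist1h2bq and Hist1h2br had 0 counts in TT-seq. Whether reads that match several copies were left out of the counting was not tested.

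After 4 h of auxin, no single histone gene passed the test without regard to the pairing of libraries, and 26 of 49 fell by small amounts when libraries were paired by number. In such bulk RNA, fewer cells in S phase and less histone RNA per cell cannot be told apart. By edgeR's quasi-likelihood test with Benjamini-Hochberg adjustment, 0 of 49 genes were higher and 0 lower, also at an unadjusted p under 0.05. Over all 11218 genes tested, 2.11% were higher and 7.09% lower. The median log2 fold change of the histone genes was −0.12, against 0.02 for all genes, and 44 of 49 values were negative. This median rested on single libraries, since it was 0.14 without untreated library 1, 0.05 without auxin library 2 and 0.03 without auxin library 3, and −0.51 without auxin library 1, −0.26 without untreated library 2 and −0.22 without untreated library 3.

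Libraries with the same replicate number deviated together in TT-seq, so the number was also fitted as a block. With this block, 26 of 49 histone genes fell and 0 rose at an adjusted p of 0.05 (edgeR's quasi-likelihood test). Of all genes, 25.3% fell and 22.7% rose in the same fit. The fold changes of the histone genes were small, with a median of −0.14 and a range of −0.35 to 0.04 on the log2 scale. Genes of every class fell, namely 7 of 13 H2A, 6 of 14 H2B, 6 of 10 H3 and 7 of 12 H4 genes. Both main clusters took part, with 22 of 43 tested genes on chromosome 13 and 4 of 6 on chromosome 3.

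The H4 gene H4c4 had 128, 69.7 and 82.3 CPM in auxin libraries 1, 2 and 3, against 135, 88.3 and 106 CPM in untreated libraries 1, 2 and 3. The auxin library was lower in each pair, although the groups overlapped. With the block its log2 fold change was −0.26 ± 0.04 (SE; adjusted p = 2.55e-08, edgeR's quasi-likelihood test). The H4 gene H4c14 had 36.9, 23.5 and 36.7 CPM in auxin libraries, against 41.5, 34.5 and 43.8 CPM in untreated libraries. Its blocked log2 fold change was −0.34 ± 0.05 (adjusted p = 3.62e-08, edgeR). H2bc4, an H2B gene also known to give polyadenylated transcripts, had 50.6, 28.4 and 32.8 CPM in auxin libraries, against 57.5, 36.8 and 41.6 CPM in untreated libraries. Its fall was −0.30 ± 0.05 (adjusted p = 9.42e-08, edgeR) and was seen in all 3 pairs. H4c14 and H2bc4 were picked for mention after their values were seen.

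Of the leading genes of the other classes, the H2A gene H2ac15 had 46.3, 25.6 and 35.6 CPM in auxin libraries, against 53.2, 28.2 and 46.4 CPM in untreated libraries, a blocked log2 fold change of −0.24 ± 0.05. H2bc18 had 148, 83.7 and 81.8 CPM in auxin libraries and 139, 91.3 and 99.4 CPM in untreated libraries. Its blocked log2 fold change was −0.10 ± 0.04 (adjusted p = 0.0298, edgeR), with the first pair going the other way. The H3 gene H3c6 had 77.8, 40.7 and 56.3 CPM in auxin libraries and 75.3, 46.3 and 61.5 CPM in untreated libraries, and did not pass (adjusted p = 0.0868, edgeR with the block). H4c6, whose promoter carries GGTCCG like that of H4c4, had 64.3, 30.5 and 31.2 CPM in auxin libraries and 61.7, 29.6 and 33.7 CPM in untreated libraries.

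**Figure D1:**
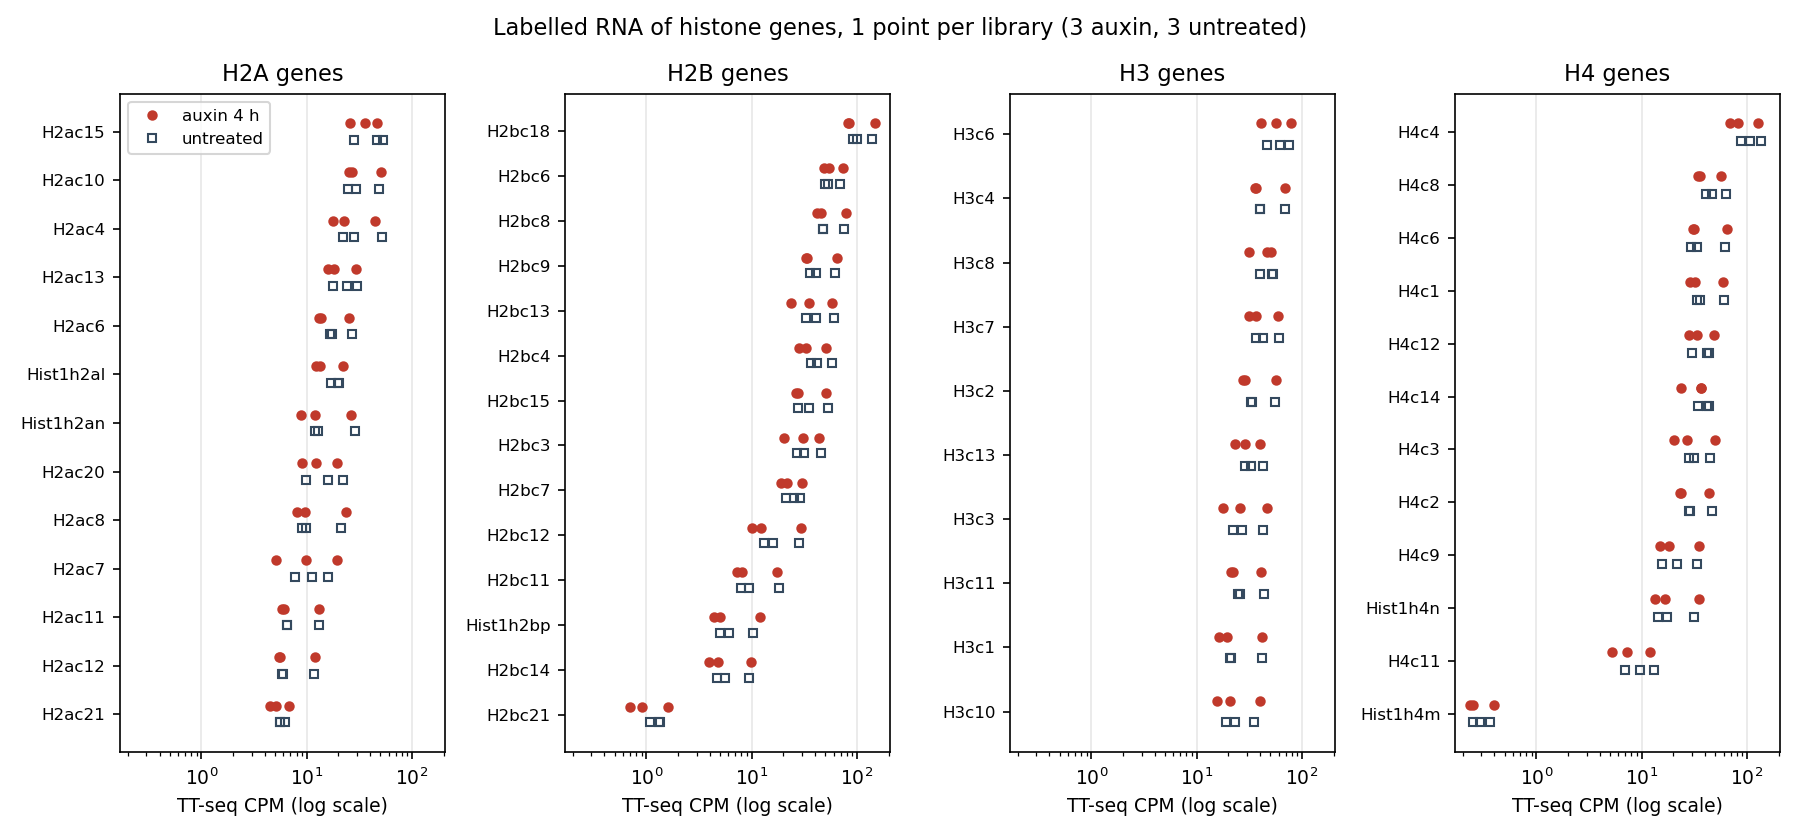
TT-seq CPM (log axis) of the 49 tested histone genes by class, 1 point per library, with the auxin libraries (filled circles) drawn above the untreated libraries (open squares) of each gene. The groups overlap for all 49 genes, and for H4c4 library 1 is the highest of each group, at 128 CPM in auxin and 135 CPM in untreated cells.

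The pairs did not all move alike. In pairs 2 and 3, 46 and 48 of 49 histone genes had less labelled RNA in the auxin library, with median log2 ratios of −0.18 and −0.25. In pair 1, 23 genes were lower and 26 higher, and the median was 0.03. The summed level of all members was 2100, 1136 and 1174 CPM in auxin libraries 1, 2 and 3, against 2102, 1305 and 1405 CPM in untreated libraries, so the first library of each group held the most. In the same order, ribosomal precursor counts (Rn45s) made up 38.8%, 23.3% and 24.6% of gene counts in auxin libraries, against 35.4%, 22.2% and 26.9% in untreated libraries. Their part in the result was not tested beyond leaving Rn45s out, after which 27 genes fell with the block, where 26.2% of all genes fell and 21.4% rose. Without pair 1, 36 of 50 tested histone genes fell with the block, where 24.1% of all genes fell and 19.1% rose. Without pair 2 it was 15 of 50, where 21.5% of all genes fell and 13.9% rose. Without pair 3 it was 12 of 49, near the share of all genes, of which 20.2% fell and 17.6% rose. No histone gene had groups that did not overlap, against 15.4% of all genes that were lower in every auxin library and 13.9% that were higher.

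**Figure D2:**
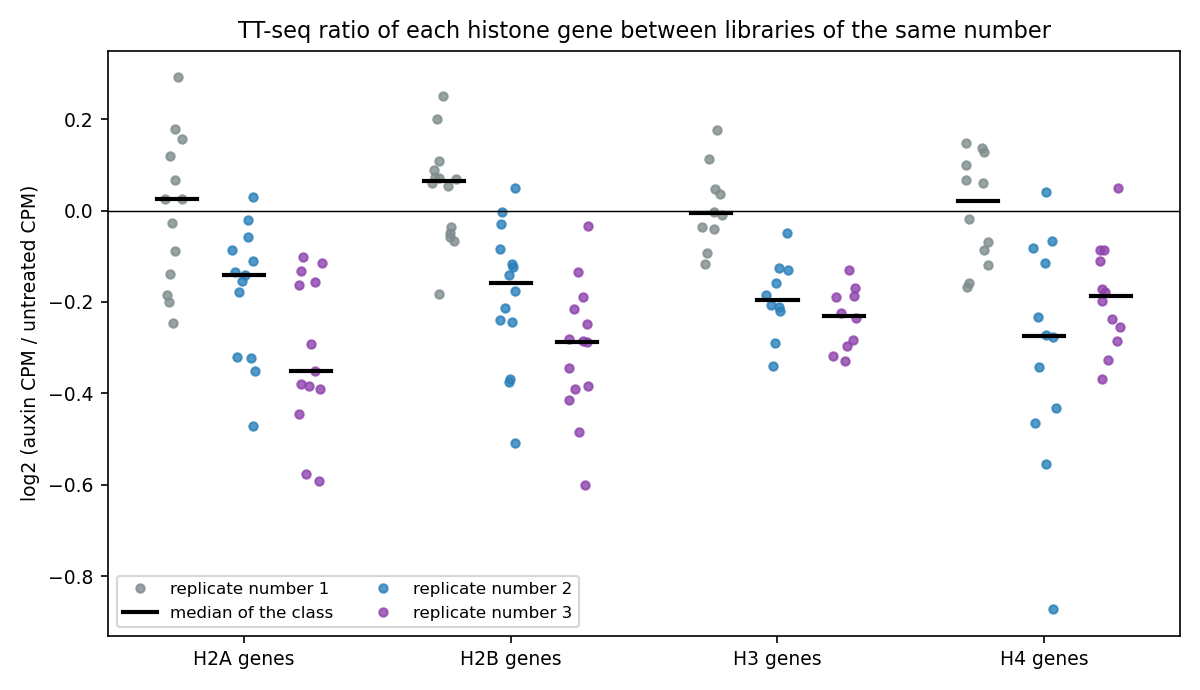
Log2 ratio of TT-seq CPM in the auxin library to that in the untreated library of the same number, for each of the 49 histone genes by class, with bars at class medians. Ratios of pair 1 scatter around 0 and those of pairs 2 and 3 lie mostly below it, in every class.

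Drosophila S2 RNA, added at 500 ng per 100 µg of RNA, gave a second scale. Per 1000 spike-in counts, the summed histone counts were 75.9, 126 and 86.0 in auxin libraries, against 76.0, 161 and 99.8 in untreated libraries. With spike-in sizes and the block, 19 of 49 histone genes fell and 0 rose, where 21.5% of all genes fell and 10.1% rose. With spike-in sizes and no block, 0 histone genes passed either way, and of all 11218 genes 0 fell and 1 rose. The linker histone genes H1f1 to H1f5 showed blocked log2 fold changes of −0.30, −0.19, −0.21, −0.18 and −0.14, each past the threshold with the block and none without it.

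The promoter motifs were also counted by the TT-seq call. Of the 21 genes that fell with the block and have a promoter entry, 18 held CCAAT, 10 TATAAA, 6 the octamer, 4 GGTCCG and 1 the YY1 core. Of the 22 promoters of genes that did not fall, 17 held CCAAT, 12 TATAAA, 5 the octamer, 6 GGTCCG and 4 the YY1 core. No test was made of these counts.

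The genes of the machinery that makes histone mRNA were called in both directions in TT-seq, more of them with the block than without it. Of 9 genes for transcription of histone genes, 1 rose and 1 fell without the block, and 5 rose and 2 fell with it. Of 17 genes for 3′ end processing and decay, 0 passed in either direction without the block, and 3 rose and 3 fell with it. Of all genes tested, 2.11% rose and 7.09% fell without the block, and 22.7% rose and 25.3% fell with it. Ccne2, a cyclin E gene, rose by 0.43 ± 0.09 on the log2 scale (adjusted p = 0.0236, edgeR). Pou2f1, which encodes Oct-1, fell to 169, 149 and 164 CPM in auxin libraries, against 248, 236 and 235 CPM in untreated libraries (log2 fold change −0.58 ± 0.08, adjusted p = 0.00399, edgeR). The groups did not overlap. Npat had 80.6, 90.8 and 84.6 CPM in auxin libraries and 101, 97.3 and 91.8 CPM in untreated libraries, a log2 fold change of −0.18 (adjusted p = 0.224, edgeR; 0.000155 with the block). Log2 fold changes of Casp8ap2, Slbp and Lsm11 (a U7 snRNP protein gene) were 0.13, 0.01 and −0.11, none past the threshold.

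Of 23 histone chaperone genes, 2 fell and 0 rose in TT-seq without the block, and both serve histones H3 and H4. With the block 8 fell and 3 rose. Asf1a had 15.3, 14.7 and 14.4 CPM in auxin libraries, against 32.7, 26.2 and 29.6 CPM in untreated libraries (log2 fold change −0.99 ± 0.11, adjusted p = 0.00121, edgeR). Nasp had 109, 76.5 and 103 CPM in auxin libraries, against 211, 133 and 172 CPM in untreated libraries (−0.84 ± 0.19, adjusted p = 0.0278, edgeR). Of 8 tested replication-independent histone genes, 1 fell without the block and 2 fell and 1 rose with it. The gene that fell without the block was H3f3a, which encodes the H3.3 protein (−0.96 ± 0.21, adjusted p = 0.0269, edgeR). None of 32 DNA replication genes passed without the block, and 9 rose and 7 fell with it. Beside these lists, 2.11% of all genes rose and 7.09% fell without the block, and 22.7% rose and 25.3% fell with it. Yy1 itself had a log2 fold change of 0.16 in labelled RNA (adjusted p = 0.276, edgeR). Auxin acts on the YY1 protein, so the Yy1 transcript does not check the labels.

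In the RNA time series the histone genes were sparse. They took 0.00460% to 0.00716% of gene counts per library, at 25.1 to 26.2 M (mega) gene counts a library, and the median level was 0.715 CPM. The testis-type gene H2ac1 was not at the floor here, with 0.152 to 0.640 CPM per library, while H2bc1 had 0 counts. In total H2ac1 had 119 counts here, against 1 in TT-seq and 2 in the untreated lines. How reads of similar copies were assigned to it was not tested. The summed level of all 64 members was lower at each later time on auxin, averaging 72.4 ± 4.05, 62.8 ± 5.65, 53.2 ± 9.20 and 51.4 ± 3.50 CPM at 0, 4, 24 and 48 h (SD, n = 3 each). Every class followed this order up to 24 h. The H2A sums averaged 22.5, 19.7, 16.9 and 16.9 CPM, the H2B sums 25.5, 21.1, 16.9 and 17.1 CPM, the H3 sums 13.5, 12.5, 10.7 and 9.45 CPM and the H4 sums 10.9, 9.55, 8.68 and 8.04 CPM. No test was made on these sums.

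**Figure D3:**
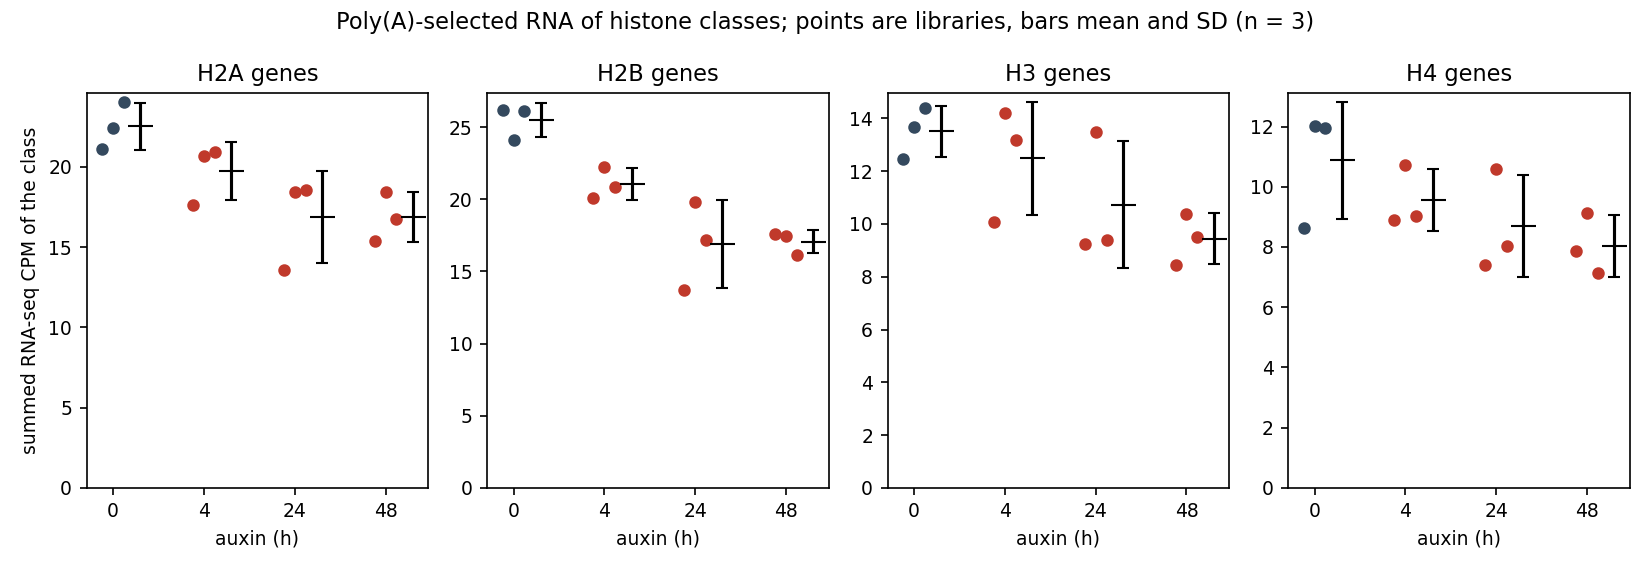
Summed RNA-seq CPM of the H2A, H2B, H3 and H4 genes at 0, 4, 24 and 48 h of auxin, with 1 point per library and the mean and SD at the right of each time (n = 3). All 3 libraries at 48 h lie below all 3 at 0 h in H2A, H2B and H3, while in H4 library 1 at 0 h lies within the 48 h range.

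At 4 h of auxin against 0 h, 1 of 50 tested histone genes fell and 0 rose by edgeR's quasi-likelihood test, where 4.14% of all genes fell and 3.14% rose. Libraries of the same number at 0 h and 4 h deviated together, and with the block 0 of 50 fell and 0 rose, where 5.49% of all genes fell and 4.36% rose. At an unadjusted p under 0.05, 4 fell and 0 rose with the block. The median log2 fold change was −0.20, against 0.01 for all genes. The gene was H2bc21, an H2B gene with polyadenylated transcripts, which had 1.68, 1.72 and 2.27 CPM at 4 h, against 3.51, 3.24 and 2.90 CPM at 0 h (−0.76 ± 0.21, adjusted p = 0.0462 without the block and 0.0539 with it, edgeR). At 24 and 48 h it had 2.22, 2.90 and 2.72 CPM and 4.69, 3.15 and 3.47 CPM, and did not pass at either time. The groups did not overlap for 3 lower and 2 higher genes, where 13.7% and 13.5% of all genes did so. The call at 4 h was lost in 5 of the 6 fits that left out 1 library, and in a fit of these 2 times alone.

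At 24 h of auxin against 0 h, 7 of 50 histone genes fell and 0 rose, where 21.5% of all genes fell and 21.5% rose. The share of members that fell was below that of all genes, while the median log2 fold change was −0.31, against 0.03 for all genes. The smallest adjusted p was that of H2bc4, the most abundant H2B gene in this table, with 1.09, 1.99 and 3.21 CPM at 24 h, against 7.83, 5.05 and 5.30 CPM at 0 h. All 24 h libraries were below all 0 h libraries, and the log2 fold change was −1.53 ± 0.31 (adjusted p = 0.00149, edgeR). H2bc4 kept its call in all 6 fits that left out 1 library, with values of −1.98 to −1.23. At 4 h and 48 h it had 5.01, 5.35 and 3.87 CPM and 3.57, 4.02 and 2.83 CPM.

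The other 6 genes that fell at 24 h were the H2A genes H2ac8 (−0.89), H2ac11 (−0.84) and H2ac19 (−0.90), the H2B genes H2bc11 (−0.74) and H2bc15 (−2.30) and the H3 gene H3c3 (−0.65 on the log2 scale). H2bc15 rested on 15, 11 and 16 counts at 0 h. No H4 gene of 9 tested fell. Without 1 library the number of genes that fell was 1 to 6, lowest without library 1 of the 24 h group, whose summed level of 44.0 CPM was the lowest of all 12 libraries, and 3 fell with no filter on low counts. The groups did not overlap for 8 lower genes and for 0 higher genes, where 25.1% and 27.2% of all genes did so.

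At 48 h of auxin against 0 h, 11 of 50 histone genes fell and 2 rose, where 24.6% of all genes fell and 24.9% rose. The share that fell was close to that of all genes, and the share that rose was 2 of 50. The median log2 fold change was −0.62, against 0.03 for all genes. By class, 4 of 16 H2A genes, 5 of 14 H2B genes, 2 of 11 H3 genes and 0 of 9 H4 genes fell, and both that rose were H2A genes. Leaving out 1 library gave 6 to 14 genes that fell, with the lowest count without library 1 at 48 h, and 1 or 2 that rose. Groups did not overlap for 19 lower and 2 higher genes, where 28.1% and 29.2% of all genes did so.

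The H2A gene H2ac13 had 1.53, 1.33 and 1.23 CPM at 48 h, against 2.12, 3.65 and 3.83 CPM at 0 h (−1.23 ± 0.27, adjusted p = 0.00164, edgeR). The groups did not overlap. Its earlier levels were 1.96, 2.91 and 2.71 CPM at 4 h and 2.18, 2.60 and 3.32 CPM at 24 h, so the low values were those of 48 h. The H2B gene H2bc11 had 0.893, 1.67 and 1.19 CPM at 48 h, against 2.49, 2.83 and 3.55 CPM at 0 h (−1.24 ± 0.29, adjusted p = 0.00308, edgeR). With 2.00, 2.95 and 2.75 CPM at 4 h and 1.39, 2.44 and 1.46 CPM at 24 h, its mean was lower at each later time. Both genes kept their calls in all 6 fits that left out 1 library.

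The most abundant H2A gene of this table, H2ac24, had 2.27, 3.87 and 3.24 CPM at 48 h, against 4.52, 4.39 and 5.26 CPM at 0 h (−0.60 ± 0.23, adjusted p = 0.0450, edgeR). H2bc4 was still down, at −0.80 ± 0.30 (adjusted p = 0.0404, edgeR). The calls of H2ac24 and H2bc4 at 48 h were lost in 5 and 3 of the 6 fits without 1 library. The other genes that fell were H3c3 (−0.91), H2ac11 (−1.07), H2ac8 (−1.06), H2bc15 (−2.46), H2bc13 (−2.34), H3c1 (−1.26) and H2bc9 (−0.87), of which H2bc13, H3c1 and H2bc9 were named after their values were seen. The largest of these values rested on few counts at 48 h, namely 1, 0 and 7 for H2bc15 and 5, 13 and 0 for H2bc13. The most abundant H4 gene, H4c9, had 2.12, 3.15 and 2.35 CPM at 48 h, against 3.02, 4.07 and 4.49 CPM at 0 h, and did not pass (−0.60 ± 0.25, adjusted p = 0.0565, edgeR). The most abundant H3 gene, H3c11, had 0.930, 2.92 and 1.60 CPM at 48 h and 1.63, 2.01 and 2.08 CPM at 0 h, with widely overlapping groups. In 48 h library 2, where H3c11 had 77 counts, the H3 gene H3c10 had 0, against 36 and 41 in 48 h libraries 1 and 3. Whether estimated counts were divided unevenly between such genes was not tested.

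Of the genes that rose at 48 h, H2ac25, an H2A gene, had 2.42, 3.11 and 2.57 CPM at 48 h, against 1.30, 1.64 and 2.00 CPM at 0 h (0.71 ± 0.26, adjusted p = 0.0375, edgeR). Its course was not steady, with 2.00, 2.35 and 2.35 CPM at 4 h and 0.715, 1.28 and 1.53 CPM at 24 h. The call against 0 h was lost in 5 of 6 fits without 1 library. H2ac18 had 1.34, 0.645 and 1.27 CPM at 48 h, against 0.489, 0 and 0.204 CPM at 0 h (2.21 ± 0.66, adjusted p = 0.0131, edgeR); it is given because it rose, outside the rule for named genes. H2ac18 and its neighbour H2ac19 are near-identical copies, sharing 219 bases in a row of their 300-base promoter windows, and estimated counts can divide reads between such copies. The sum of both was 2.57, 1.93 and 1.86 CPM at 48 h, against 2.49, 1.56 and 1.71 CPM at 0 h, and these groups overlapped. At 24 h the sum was 1.24, 1.09 and 1.53 CPM, below all 0 h libraries. The fall of H2ac19 at 24 h and the rise of H2ac18 at 48 h are therefore uncertain as changes of single genes.

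**Figure D4:**
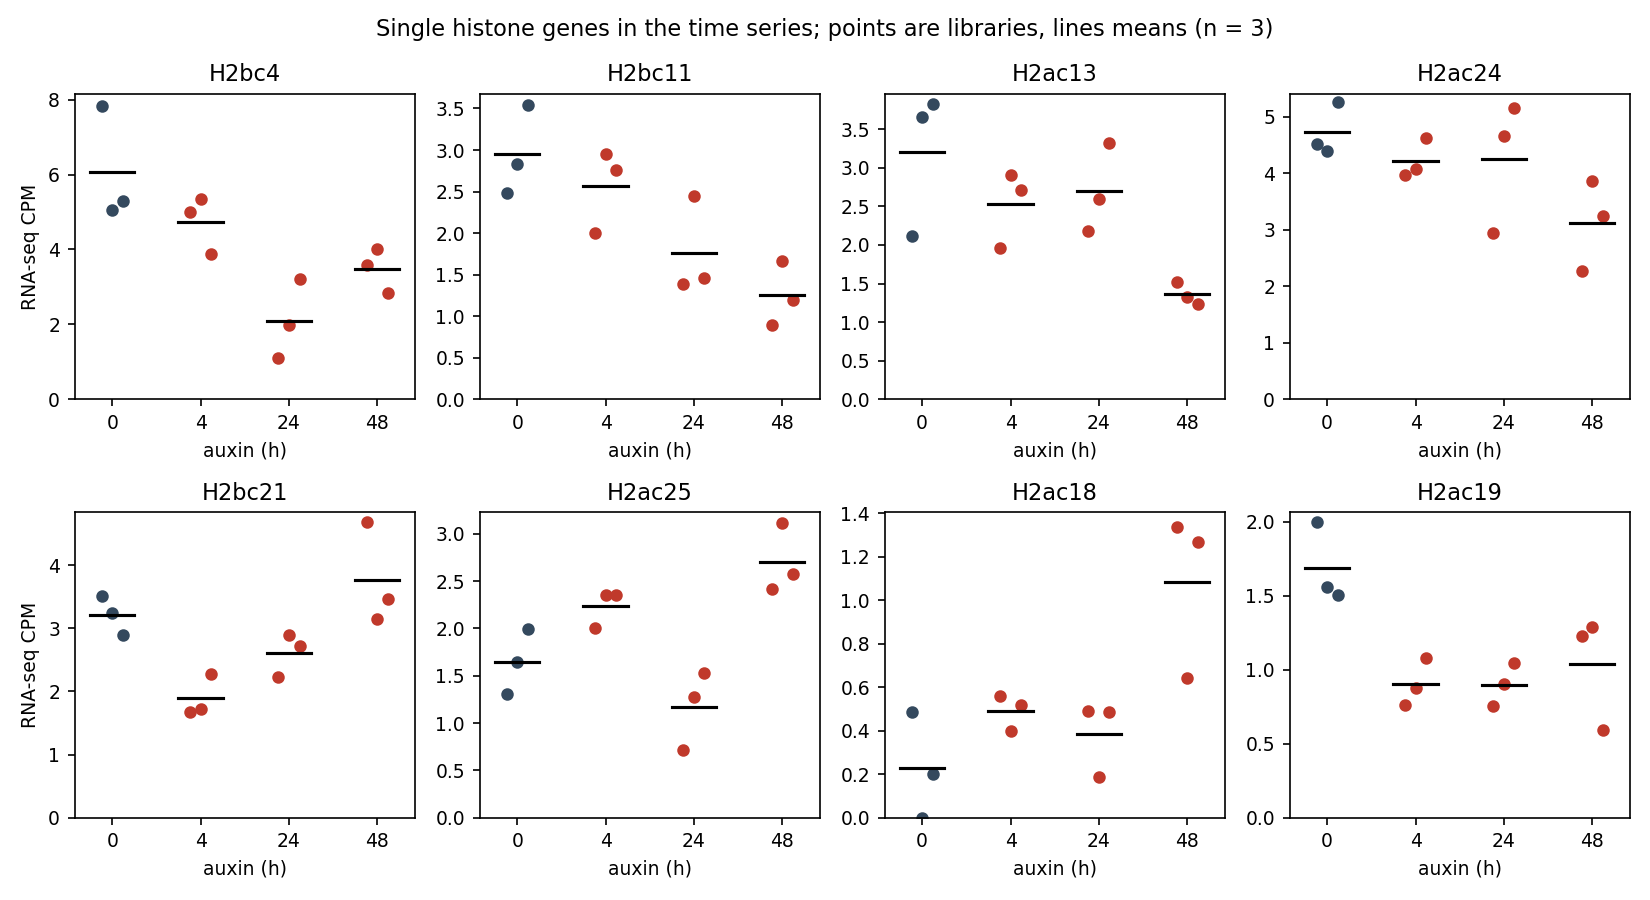
RNA-seq CPM of 8 histone genes at 0, 4, 24 and 48 h of auxin, with 1 point per library and a line at the mean (n = 3). H2bc4 is lowest at 24 h, H2bc11 and H2ac13 are lowest at 48 h, and H2ac18 reaches 1.34 CPM at 48 h while its copy H2ac19 is highest at 0 h.

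Between later times few histone genes moved. From the fit of all 4 times, at 24 h against 4 h, 2 of 50 fell and 0 rose, where 17.7% of all genes fell and 15.9% rose. These were H2bc4 (−1.17 ± 0.31, adjusted p = 0.0109, edgeR) and H2ac25 (−0.93 ± 0.27, adjusted p = 0.0177, edgeR). At 48 h against 24 h, H2ac13 fell (−0.99 ± 0.27, adjusted p = 0.0460, edgeR) and H2ac25 rose (1.20 ± 0.27, adjusted p = 0.0209, edgeR), 1 of 50 each way, where 2.84% of all genes fell and 3.03% rose. The call of H2ac13 was lost in all 6 fits without 1 library and that of H2ac25 in 3.

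Genes that serve histone supply and DNA replication were counted in the same RNA, where the shares of all genes given above were 4.14% down and 3.14% up at 4 h, 21.5% each way at 24 h, and 24.6% down and 24.9% up at 48 h. Histone genes had low counts in this RNA, so their number of calls is not compared with that of other lists. Of 32 DNA replication genes, 4 fell and 0 rose at 4 h, 14 fell and 3 rose at 24 h, and 22 fell and 1 rose at 48 h, each against 0 h. The helicase gene Mcm5 had 237, 267 and 245 CPM at 48 h, against 566, 559 and 598 CPM at 0 h (−1.20 ± 0.06, adjusted p = 1.55e-08, edgeR). Dut, a dUTPase gene, fell with a log2 fold change of −1.04 at 48 h. Histone chaperones fell as well, 2 of 23 at 4 h, 10 at 24 h and 13 at 48 h, with 0, 3 and 2 that rose (1 rose at 4 h with the block). The median log2 fold changes at 48 h were −0.30 for the DNA replication genes and −0.23 for the chaperones, against 0.03 for all genes. Nasp had 89.0, 108 and 103 CPM at 48 h, against 332, 301 and 326 CPM at 0 h (−1.68 ± 0.08, adjusted p = 5.71e-09, edgeR), with intermediate values of 241, 244 and 262 CPM at 4 h and 139, 137 and 126 CPM at 24 h. Asf1a fell at 4, 24 and 48 h, with log2 fold changes of −0.49, −0.51 and −0.79.

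Of 17 genes for histone mRNA 3′ end processing and decay, 1 rose and 1 fell at 4 h, 3 rose and 6 fell at 24 h, and 2 rose and 6 fell at 48 h. Their median log2 fold change was −0.01 at 24 h and −0.15 at 48 h, where 21.5% and 24.6% of all genes fell. Lsm11 had 17.5, 17.8 and 18.9 CPM at 48 h, against 32.9, 29.2 and 30.3 CPM at 0 h (−0.77 ± 0.09, adjusted p = 7.68e-06, edgeR). Coil, the gene of the Cajal body protein coilin, fell with a log2 fold change of −1.21 at 48 h. Slbp did not pass at any time, with 167, 182 and 169 CPM at 48 h and 187, 180 and 181 CPM at 0 h. Of 9 genes for transcription of histone genes, 2 rose and 4 fell at both 24 and 48 h. Npat and Casp8ap2 did not pass at 4, 24 or 48 h, and their log2 fold changes at 48 h were 0.10 and −0.01. Hinfp, the H4 promoter factor gene, had 53.2, 43.2 and 51.8 CPM at 48 h, against 33.3, 32.8 and 30.3 CPM at 0 h (0.62 ± 0.10, adjusted p = 0.000130, edgeR). Cdc25a and Ccne1, which promote entry into S phase, fell with log2 fold changes of −0.63 and −0.76 at 48 h.

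Among 8 tested replication-independent histone genes, 2 rose and 2 fell at 24 h, and 3 rose and 3 fell at 48 h, where 21.5% of all genes moved each way at 24 h and 24.9% rose and 24.6% fell at 48 h. H3f3a had 255, 281 and 269 CPM at 48 h, against 433, 461 and 480 CPM at 0 h (−0.77 ± 0.07, adjusted p = 7.39e-07, edgeR). H2az2, an H2A.Z gene, had 41.1, 47.2 and 43.4 CPM at 48 h, against 21.4, 22.1 and 21.8 CPM at 0 h (1.01 ± 0.10, adjusted p = 2.11e-06, edgeR). Of 15 genes of the G2 and M phases, 3 rose and 5 fell at 48 h.

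Markers of blood cells also changed with time. The summed level of 4 megakaryocyte genes was 38.3 to 52.3 CPM at 0 h, 41.8 to 50.9 at 4 h, 103 to 142 at 24 h and 210 to 249 CPM at 48 h, of which Itga2b made up 26.3 to 33.1 CPM at 0 h and 175 to 212 CPM at 48 h. Of these 4 genes, 2 rose at 24 h and at 48 h and 0 fell. The summed erythroid markers ranged from 2705 to 2779 CPM at 0 h, 2703 to 2786 at 4 h, 2033 to 2225 at 24 h and 2394 to 2681 CPM at 48 h, with 9 of 10 listed genes in the table, of which 1 rose and 6 fell at 24 h and 2 rose and 6 fell at 48 h. The 5 myeloid markers summed to 0.489 to 0.652 CPM at 0 h, 0.559 to 0.681 at 4 h, 1.05 to 1.54 at 24 h and 1.49 to 2.54 CPM at 48 h. Of the 2 that were tested, the lysozyme gene Lyz2 and the receptor gene Csf1r, 1 rose at 24 h (Csf1r) and 2 rose at 48 h, while Mpo was at 0 in all 0 h libraries. The 4 mast cell markers summed to 39.8 to 67.4 CPM at 0 h, 42.3 to 65.0 at 4 h, 60.3 to 88.5 at 24 h and 63.3 to 76.4 CPM at 48 h. Of the 2 that were tested, Cpa3 rose and Ms4a2 fell at 24 and 48 h. Lymphoid markers summed to at most 0.120 CPM, with Cd3e at 0 in every library, and pluripotent stem cell markers to at most 0.970 CPM, with Pou5f1, Sox2 and Zfp42 at 0. The part of these markers, or of the share of cells in S phase, in the histone result was not tested.

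The untreated lines ask whether the sublines differ from their parent before auxin is given. None of the 57 tested histone genes passed between any lines without the block (edgeR), where 0% to 0.0826% of all genes were called. At an unadjusted p under 0.05, 1 gene was higher and 1 lower in subline 3 against parental, and 0 differed either way in the other comparisons. Libraries of the same number deviated together here too. The summed histone level was 130, 156 and 177 CPM in library 1 of subline 3, the YY1-AID subline and the parental line, and 82.3, 65.4 and 81.6 CPM in library 2 of the same lines. Library number thus moved the sum more than the line did.

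With the block, 0 of 57 genes differed between the YY1-AID subline and parental cells, where 1.63% of all genes were higher and 2.40% lower. Their median log2 fold change was −0.31 without the block, against 0.02 for all genes. It was 0.21 without YY1-AID library 2 and 0.50 without parental library 1, and −1.40 without YY1-AID library 1 and −0.81 without parental library 2. In subline 3 against parental, 1 gene was higher and 2 lower with the block, where 4.20% of all genes were higher and 2.05% lower. The higher gene was Hist1h1c, a linker histone gene with polyadenylated transcripts, with 22.0 and 13.3 CPM in subline 3, 11.3 and 9.17 CPM in the YY1-AID subline and 9.71 and 6.15 CPM in the parental line. Its log2 fold change against parental was 1.15 (adjusted p = 0.00488 with the block and 0.824 without it, edgeR). The lower genes were H2A genes. Hist1h2ao had 10.8 and 4.90 CPM in subline 3, against 18.8 and 8.59 CPM in the parental line (−0.80, adjusted p = 0.0194 with the block, edgeR). This gene had 2538 counts over the untreated lines but 6 over the time series, under its newer symbol H2ac23, and 0 in TT-seq. Its change is therefore uncertain as that of a single gene, and how reads of similar copies were assigned was not tested. Hist1h2ad had 0.943 and 0 CPM in subline 3, against 4.10 and 1.87 CPM in the parental line (adjusted p = 0.0438 with the block, edgeR). In subline 3 against the YY1-AID subline, Hist1h1c alone was higher with the block (0.75, adjusted p = 0.0282, edgeR), where 4.43% of all genes were higher and 1.74% lower.

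**Figure D5:**
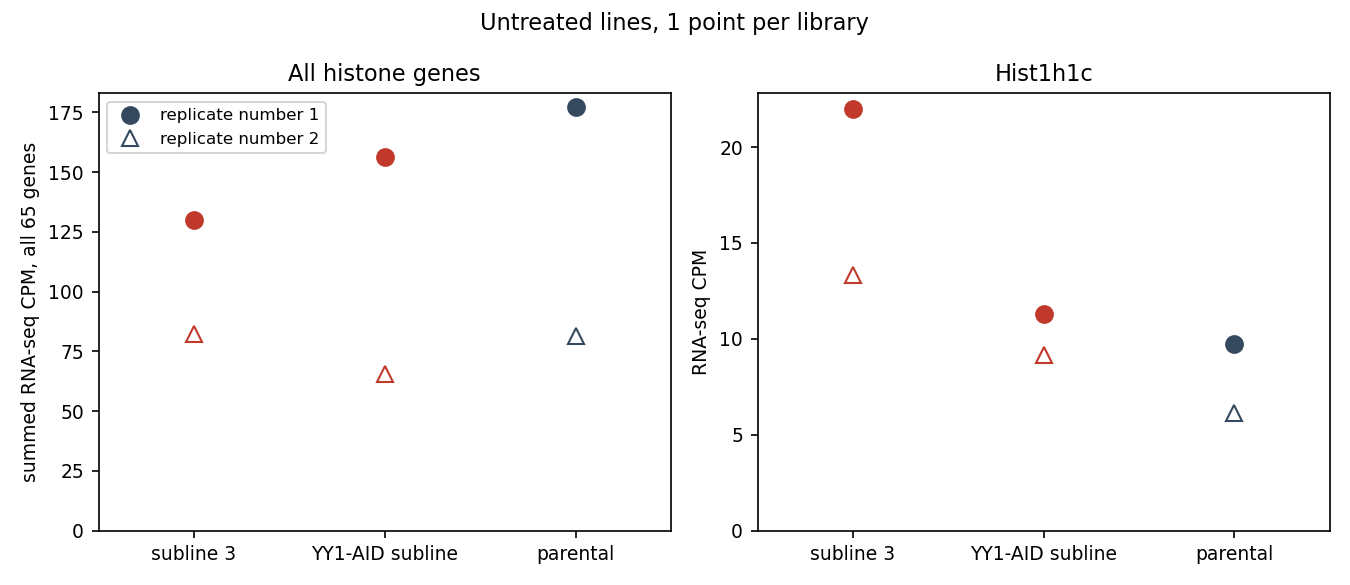
Summed RNA-seq CPM of all 65 histone genes (left) and CPM of Hist1h1c (right) in subline 3, the YY1-AID subline and the parental line, with 1 point per library. The sum is higher in library 1 of every line, and Hist1h1c is highest in subline 3 at both library numbers.

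The most abundant H2B, H3 and H4 genes of these lines did not pass in any comparison, with or without the block. Hist1h2bc, the older name of H2bc4, had 10.9 and 5.63 CPM in subline 3, 10.5 and 5.41 CPM in the YY1-AID subline and 7.31 and 4.83 CPM in the parental line. Hist1h3e had 2.19 and 1.55 CPM in subline 3, 3.08 and 1.63 CPM in the YY1-AID subline and 4.08 and 1.29 CPM in the parental line. Hist1h4i had 3.08 and 1.94 CPM in subline 3, 2.76 and 2.08 CPM in the YY1-AID subline and 2.43 and 2.00 CPM in the parental line. The testis-type genes Hist1h2aa and Hist1h2ba (H2ac1 and H2bc1 in the other tables) were at most 0.024 and 0.082 CPM in any library of these lines.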

How the data were processed

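Members and lists were chosen with earlier results of these data known. Per the labels, poly(A)-selected RNA was sequenced from stranded mRNA libraries, and TT-seq RNA from stranded total-RNA libraries with Drosophila spike-in. The submitters' processing notes name Trim Galore 0.6.10, STAR, SAMtools, Salmon 0.13.1 and the builds mm9 and dm6; the strand counted is not stated there. The authors deposited estimated counts per gene for RNA-seq, rounded to whole numbers, and whole-number read counts per gene for TT-seq. In TT-seq, 17.2% to 22.2% of counted reads lay in no gene and 0.391% to 0.529% were ambiguous; these lines were left out of library sizes and tests.

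Depth was 25.1 to 26.2 M (mega) gene counts per library in the time series, 35.2 to 44.9 M in the untreated lines and 30.2 to 53.5 M in TT-seq. Low histone counts in poly(A)-selected RNA limit precision there. Each whole table was fitted with edgeR 4.0.16 (quasi-likelihood test, TMM, filterByExpr) in R 4.3.3, with Benjamini-Hochberg adjustment over all genes tested at 0.05, and the histone rows were read off. The time series was 1 fit of 4 times. The method was tested on simulated data, with changes larger than those of the histone genes in TT-seq. These were planted only in genes above the level of any histone gene in the time series. The simulation therefore does not cover such small changes or such low counts. Alternatives were DESeq2 1.42.0, median-of-ratios size factors, no filter, spike-in sizes, fits of 2 groups, 1 library left out and the replicate block. Same-numbered TT-seq libraries deviated together (Pearson r of 0.69 to 0.91 across genes), as did the untreated lines (0.90 to 0.95). Both are therefore given with the block. Between numbers, r in TT-seq was at most −0.04, but deviations from group means sum to 0, which pulls these values down. The labels do not say that the number marks a shared culture or day. Of the time-series comparisons only 4 h against 0 h had r over 0.1 in all 3 pairs (0.34, 0.18 and 0.29), and it is given with the block too. The block fits without 1 pair and without Rn45s were added after the data were seen. CPM values are TMM-scaled.

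Named genes are all histone genes past the threshold where 10 or fewer, otherwise the 5 of smallest p in each direction at a mean log2 CPM of at least 1, the most abundant member of each class, testis-type members with counts, up to 3 genes of each list, and Npat, Casp8ap2, Slbp and Lsm11. Chromatin assays of the series were not used here.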

Additional observations from a re-analysis of the deposited data

How the results depend on the processing

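The replicate block, which pairs libraries by number, set the TT-seq result: without it 0 of 49 histone genes fell and with it 26, with spike-in sizes 19, and without Rn45s 27. Leaving out pair 1, 2 or 3 under the block gave 36, 15 and 12. The shares of all genes in these fits are given above. Without the block, leaving out 1 library gave 0 to 1 lower gene, 0 higher, and a median log2 fold change of −0.51 to 0.14. At 4 h against 0 h, where same-numbered libraries had r over 0.1 in all 3 pairs, the block took the 1 lower gene to 0. In the other time-series comparisons r was over 0.1 in some of the pairs only. Over all 18 same-numbered pairs of times, r was −0.23 to 0.37 and over 0.1 in 11. With the block, 8 in place of 7 genes fell at 24 h against 0 h, where 3481 of all 15157 genes fell. At 24 h against 4 h it was 3 in place of 2, where 3013 of all 15157 genes fell. In the untreated lines the block gave 1 higher and 2 lower genes for subline 3 against parental, where 4.20% and 2.05% of all genes were called. Against the YY1-AID subline it gave 1 higher gene, where 4.43% of all genes were higher and 1.74% lower.

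Without the filter on low counts, 1 gene rose at 48 h, 3 fell at 24 h, 1 rose at 24 h against 4 h and 2 fell at 48 h against 24 h. For fits without the filter, by DESeq2, of 2 groups or without 1 library, the shares of all genes are not given here. Their counts show only how far the calls of histone genes moved. DESeq2 called 1 gene higher at 48 h, in place of 2. Its other counts, and those with median-of-ratios size factors, are not given here. Fits of 2 groups called 0 lower at 4 h and 0 each way at 48 h against 24 h. Without 1 library, lower genes numbered 0 to 1 at 4 h, 1 to 6 at 24 h, 6 to 14 at 48 h, 1 to 6 at 24 h against 4 h and 0 at 48 h against 24 h. Higher genes numbered 1 to 2 at 48 h and 0 to 2 at 48 h against 24 h. Leave-one-out medians ran from −0.33 to −0.12 at 4 h, −0.56 to −0.25 at 24 h, −0.64 to −0.54 at 48 h, −0.37 to −0.09 at 24 h against 4 h and −0.30 to −0.00 at 48 h against 24 h. In the untreated lines they ran from −1.40 to 0.50 for the YY1-AID subline against parental, −1.03 to 0.29 for subline 3 against parental and −0.67 to 0.90 for subline 3 against the YY1-AID subline, with 0 calls. The causes were not tested. No value reversed among the called genes that were followed through these settings. At 48 h against 0 h these were H2ac25, H2ac13, H2bc11, H2bc4 and H2ac24. Genes called only with the block were not followed in this way. Low counts in poly(A)-selected RNA limit what can be seen of single histone genes there.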
